A study of Rattus rattus with 10 samples.

Results

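The 10 genes described here encode hexokinases (Hk1, Hk2), lactate dehydrogenases (Ldha, Ldhb, Ldhc), monocarboxylate carriers (Slc16a1, Slc16a3, Slc16a7) and the mitochondrial pyruvate carrier (Mpc1, Mpc2). They were taken by platform annotation symbol, because lonidamine is known to act on hexokinase and on monocarboxylate and pyruvate carriers, and they are 10 of 14217 named genes. They are read by 15 probe sets, of which 3 are array controls for Hk1. Hk1 and Slc16a1 have 2 of the other 12 each, and every gene is given first by its brightest probe set. All 10 of these brightest probe sets passed the filter on low signals.

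RNA of whole testis was measured on 10 Affymetrix arrays, 1 for each treatment and hour. The tissue came from male Long-Evans rats of 60 days that received 1 intraperitoneal dose of gamendazole (6 mg/kg), of lonidamine (25 mg/kg) or of the buffered DMSO vehicle. Gamendazole and lonidamine arrays exist for 4, 12 and 24 h, and vehicle arrays for 0, 4, 12 and 24 h. All animals, per the labels, were intact adults, with no genetic change named, and the labels give neither the number of animals behind an array nor any pooling of RNA. Their organism field reads Rattus rattus, although Long-Evans animals are Rattus norvegicus. Both drugs are indazoles, lonidamine with a carboxylic acid and gamendazole with an acrylic acid side chain, and they were given at different doses, so their values stand side by side and were not tested against each other.

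In the seminiferous tubule, Sertoli cells take up glucose, convert it to lactate and export it, and spermatocytes and spermatids take the lactate up as a main fuel. Hexokinase traps glucose in the cell as glucose 6-phosphate at the start of this route. Lactate dehydrogenase interconverts pyruvate and lactate, carriers of the SLC16 family move both across the plasma membrane together with a proton, and the MPC1 and MPC2 proteins together carry pyruvate into mitochondria. Late male germ cells have forms of their own for several of these steps, such as the lactate dehydrogenase subunit of Ldhc.

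Values are signals on the linear scale of the arrays, which the authors' software had scaled to the same trimmed mean on every array. Whole-testis RNA does not tell fewer cells of a type from less RNA per cell. No treatment was replicated at an hour. The averaged comparisons therefore used limma with treatment and hour as factors on the 9 arrays of 4, 12 and 24 h (n = 3 arrays per treatment), so the hours stand in for replicates and any change of an effect over time adds to the error. P-values rest on the spread between these arrays that treatment and hour leave over, moderated over all tested probe sets. It may be technical in part, and spread between animals cannot be told apart from technical spread or from a change over time. Differences are log2 of treatment minus vehicle, with the standard error after ±, and adjusted p is Benjamini-Hochberg over all 17549 tested probe sets. By the instrument records, gamendazole 4 h was hybridised in the run of the 12 h arrays, and its vehicle 4 h array in an earlier run.

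None of the 10 genes passed at an adjusted p of 0.05, with either drug. Over all tested probe sets 3.95% passed with gamendazole and 0.781% with lonidamine (limma), so few or no calls among 10 genes lie near that background. At an unadjusted p under 0.05 there were 3 genes with gamendazole, namely Slc16a1, Ldhc and Mpc2, and 2 with lonidamine, namely Ldhc and Mpc2, against 20.0% and 12.7% of all tested probe sets. The median log2 difference of the 10 genes was -0.04 with gamendazole and -0.06 with lonidamine, beside -0.03 and -0.01 over all tested probe sets. Slc16a1, the carrier MCT1, had the lowest averaged difference of the 10 with gamendazole.

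**Figure D1:**
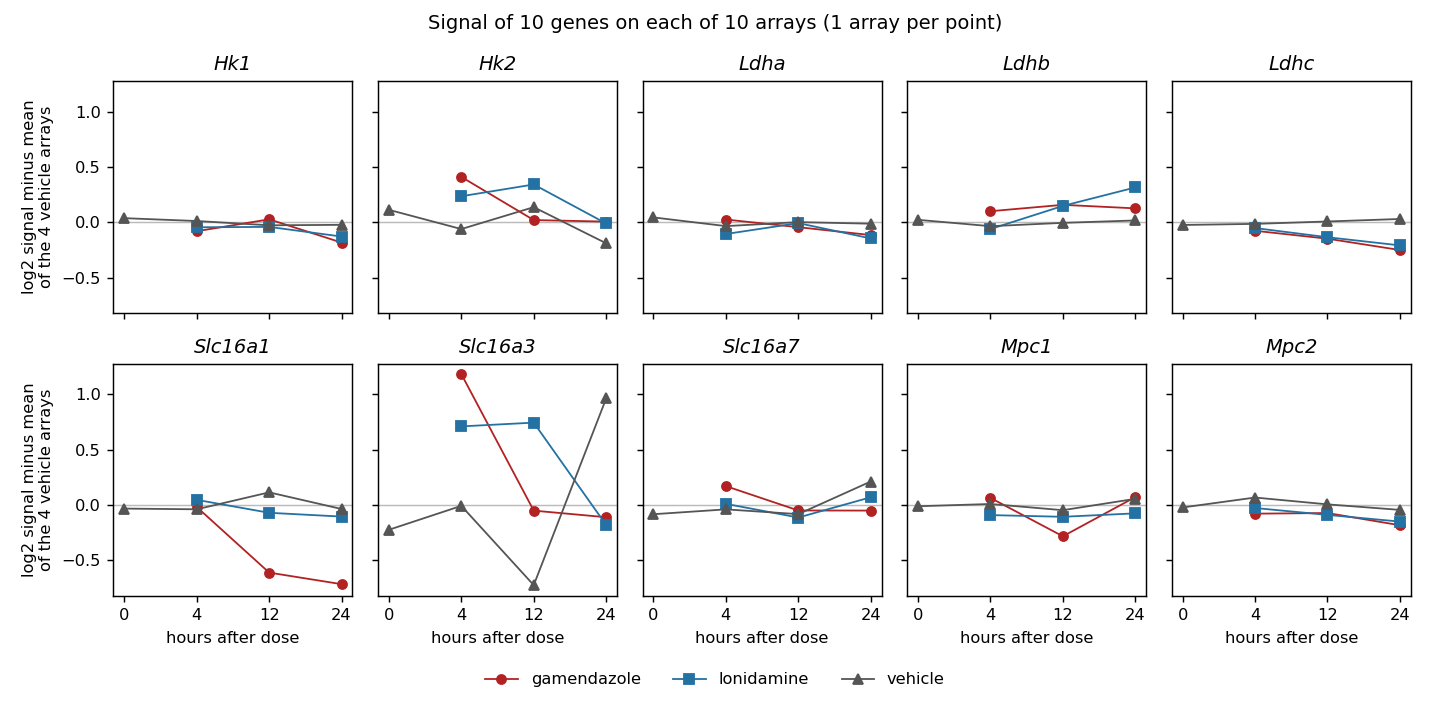
Log2 signal of each of the 10 genes minus the mean of its 4 vehicle arrays (vertical axis), against hours after dose (horizontal axis, not to scale), with 1 array per point for gamendazole, lonidamine and vehicle. Gamendazole points of Slc16a1 leave the others at 12 and 24 h, Slc16a3 scatters in vehicle itself, and most other points lie within 0.5 of 0.

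Hk1 encodes a hexokinase that predominates in brain and sperm, and some of its forms bind the outer mitochondrial membrane. Its brightest probe set (number 1386929) gave 20474, 22059 and 19064 units of signal with gamendazole at 4, 12 and 24 h, and 20985, 21036 and 19802 with lonidamine. Vehicle arrays gave 22220.0, 21826, 21245 and 21311 at 0, 4, 12 and 24 h. The 3 lonidamine arrays lay below all 4 vehicle arrays and 2 of the 3 gamendazole arrays did. The averaged difference was -0.07 ± 0.05 with gamendazole (limma adjusted p = 0.463) and -0.06 ± 0.05 with lonidamine (adjusted p = 0.658). The 95% intervals reached from -0.17 to 0.04 and from -0.16 to 0.04, so they hold no change past 0.17 on the log2 scale. That limit covers this probe set as deposited only. Under cyclic loess its gamendazole difference was 0.07 ± 0.05, and the control probe sets of Hk1 went past the limit with gamendazole. A second Hk1 probe set (number 1398725) was dim, with 235, 154 and 162 units in gamendazole testes, 171, 137 and 202 in lonidamine testes, and 126 to 171 in vehicle testes, and its intervals were wider (-0.36 to 0.82 and -0.46 to 0.71).

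The array also carries 3 control probe sets along the Hk1 transcript, at its 3′ end, its middle and its 5′ end. At the 3′ end the signals were 9927, 10052 and 9036 with gamendazole, 10612, 10526 and 9794 with lonidamine, and 11548, 11000.4, 11424 and 10809.5 with vehicle at 0, 4, 12 and 24 h. All 3 gamendazole arrays lay below the lowest vehicle array there, as did all 3 lonidamine arrays. The middle gave 7087, 7162 and 5950.2 with gamendazole against 7330.0 to 8699 in vehicle testes, and the 5′ end gave 6994, 7097 and 6391 against 7891 to 8453. Controls are left out of the fit above. In a fit that kept them, added after the values were seen, the 3′ probe set fell by 0.20 ± 0.05 with gamendazole (limma adjusted p = 0.0435), while the 5′ one differed by -0.26 ± 0.06 (adjusted p = 0.0510) and the middle one by -0.19 ± 0.05 (adjusted p = 0.0917). Under quantile normalization and cyclic loess the 3′ difference was -0.10 in both (adjusted p = 0.243 and 0.266), and without the 12 h or 24 h arrays the call ended too (adjusted p = 0.451 and 0.316). Without the 4 h arrays the 3′, middle and 5′ probe sets all passed (limma adjusted p = 0.0312, 0.0496 and 0.0301), and without the gamendazole 4 h array the 3′ one did (adjusted p = 0.0357). With lonidamine the 3 differences lay between -0.14 and -0.10 and did not pass. The probe sets of Hk1 thus gave unlike sizes, from -0.26 to -0.07 among the bright 4 with gamendazole. As a measure of RNA integrity, the 3′ control divided by the 5′ control gave 1.42, 1.42 and 1.41 with gamendazole, 1.35, 1.31 and 1.49 with lonidamine, and 1.43, 1.39, 1.35 and 1.32 with vehicle.

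Hk2 encodes the inducible hexokinase of muscle, fat and many tumours. Its signals were 334, 255 and 253 with gamendazole and 296, 319 and 249.8 with lonidamine, against 272, 241, 277 and 221 with vehicle at 0, 4, 12 and 24 h. Gamendazole 4 h and lonidamine 4 h and 12 h were above every vehicle array, and the other treated arrays lay inside the vehicle range. The averaged difference was 0.18 ± 0.17 with gamendazole (limma adjusted p = 0.603; 95% interval -0.21 to 0.57) and 0.23 ± 0.17 with lonidamine (adjusted p = 0.655; -0.16 to 0.62). The gamendazole difference rested on its 4 h array, without which it was 0.06, and without all 4 h arrays it was 0.04; after quantile normalization it was 0.10. Lonidamine was higher than the vehicle array of the same hour at 3 of 3 hours and gamendazole at 2 of 3.

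Of the lactate dehydrogenases, Ldhc encodes the subunit made in spermatocytes and later germ cells. Its signals were 28286, 26922 and 25072 at 4, 12 and 24 h with gamendazole and 28777, 27167 and 25814 with lonidamine. The vehicle arrays gave 29335, 29539, 29988 and 30460.4. Every treated array lay below every vehicle array, and with both drugs the 24 h array was the lowest. The averaged difference was -0.17 ± 0.05 with gamendazole, or 0.891 times vehicle (limma adjusted p = 0.0782; 95% interval -0.27 to -0.06), and -0.14 ± 0.05 with lonidamine (adjusted p = 0.230; -0.24 to -0.04). Without the 4 h arrays the gamendazole difference was -0.22 and passed (adjusted p = 0.0181), and without the gamendazole 4 h array alone it was -0.19 and passed as well (adjusted p = 0.0442). Without the 12 h arrays it was -0.17 (adjusted p = 0.523) and without the 24 h arrays -0.11 (adjusted p = 0.456). These leave-out fits used the deposited scaling only, and without the 4 h arrays 1646 of all 17549 tested probe sets passed. With all hours kept, the gamendazole difference was -0.04 after quantile normalization and -0.01 after cyclic loess (limma adjusted p = 0.551 and 0.904).

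Ldha encodes the muscle-type subunit, which favours lactate formation. It gave 14365, 13692 and 13032 with gamendazole, 13120.2, 14046 and 12761 with lonidamine, and 14557, 13785, 14134 and 13995 with vehicle. The groups overlapped, and the averaged differences were -0.03 ± 0.05 (limma adjusted p = 0.779; 95% interval -0.14 to 0.08) and -0.07 ± 0.05 (adjusted p = 0.602; -0.18 to 0.04). Ldhb encodes the heart-type subunit, which favours pyruvate formation. It gave 3941, 4102 and 4012 with gamendazole and 3524, 4074 and 4575 with lonidamine, against 3734, 3588, 3664 and 3719 with vehicle. All 3 gamendazole arrays lay above all 4 vehicle arrays, and the lonidamine arrays lay on both sides of them. The averaged differences of 0.14 ± 0.08 with both drugs did not pass (limma adjusted p = 0.355 with gamendazole and 0.488 with lonidamine).

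Among the carriers, Slc16a1 encodes MCT1, which moves lactate and pyruvate in either direction in most tissues. Its signals were 1324, 877 and 816 at 4, 12 and 24 h with gamendazole, and 1384, 1276 and 1246 with lonidamine. The vehicle arrays gave 1310.4, 1305, 1451 and 1307 at 0, 4, 12 and 24 h. Gamendazole 4 h lay inside the vehicle range, while gamendazole 12 h and 24 h were 0.605 and 0.624 times the vehicle array of the same hour. With lonidamine the ratios were 1.06, 0.880 and 0.954.

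The averaged difference of Slc16a1 was -0.46 ± 0.14 with gamendazole, or 0.726 times vehicle, and did not pass (limma adjusted p = 0.106; 95% interval -0.78 to -0.15). In size it was among the 17.4% of tested probe sets with the largest differences. Without the 4 h arrays it was -0.70 ± 0.10 and passed (limma adjusted p = 0.00677), and without the gamendazole 4 h array alone it was -0.67 ± 0.11 and passed (adjusted p = 0.0140). Without the 12 h arrays it was -0.33 (adjusted p = 0.634), and without the 24 h arrays -0.35 (adjusted p = 0.499). With the mean of both Slc16a1 probe sets it was -0.23 (adjusted p = 0.460). The second probe set lay under the floor on every array, so its difference was 0.0 by construction. That mean is therefore no separate check of the first probe set. Gamendazole 4 h was hybridised in the run of the 12 h arrays, and against the vehicle array of that run, vehicle 12 h, it was 0.912. When the hybridisation run replaced the hour as a factor, the difference was -0.49 (adjusted p = 0.178). With lonidamine the averaged difference was -0.06 ± 0.14 (adjusted p = 0.918; -0.37 to 0.26). A second Slc16a1 probe set (number 1380467) gave 2.7 to 15.6 units over the 10 arrays, below the floor of 37.1 on each, and was not tested.

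Slc16a3 encodes MCT4, the carrier of cells that export lactate from glycolysis, and its probe set was dim. It gave 139, 59.2 and 56.8 with gamendazole and 100.4, 103 and 54.1 with lonidamine, against 52.5, 61.0, 32.2 and 119.6 with vehicle at 0, 4, 12 and 24 h. The vehicle arrays alone covered nearly the range of all arrays, with a standard deviation of 0.78 on the log2 scale, and vehicle 12 h lay under the floor. The averaged differences of 0.26 ± 0.53 and 0.35 ± 0.53 did not pass (limma adjusted p = 0.825 with gamendazole and 0.847 with lonidamine), and their intervals (-0.93 to 1.46 and -0.84 to 1.54) hold changes of more than 2-fold in either direction. Slc16a7 encodes MCT2, a carrier of high affinity that is found on the tail of rodent sperm. It gave 9532, 8183 and 8176 with gamendazole, 8529.9, 7828 and 8889 with lonidamine, and 7993, 8239, 7996 and 9812 with vehicle. These groups overlapped, with differences of -0.01 ± 0.08 (limma adjusted p = 0.976; 95% interval -0.18 to 0.17) and -0.04 ± 0.08 (adjusted p = 0.882; -0.21 to 0.13).

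The subunits of the mitochondrial pyruvate carrier are Mpc1 and Mpc2, and the protein needs both. Mpc2 gave 13315, 13368 and 12382 with gamendazole and 13795, 13212 and 12671 with lonidamine, against 13843, 14732, 14115 and 13634 with vehicle. All 3 gamendazole arrays were below all 4 vehicle arrays, and 2 of 3 lonidamine arrays were. The differences were -0.12 ± 0.04 (limma adjusted p = 0.139; 95% interval -0.21 to -0.03) and -0.10 ± 0.04 (adjusted p = 0.351; -0.19 to -0.01). Mpc1 gave 1526, 1199.9 and 1534 with gamendazole, 1371, 1356 and 1386 with lonidamine, and 1449, 1469, 1413 and 1518 with vehicle. The gamendazole arrays lay on both sides of the vehicle arrays, and the 3 lonidamine arrays below them. The differences were -0.06 ± 0.09 (limma adjusted p = 0.790) and -0.10 ± 0.09 (adjusted p = 0.736).

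**Figure D2:**
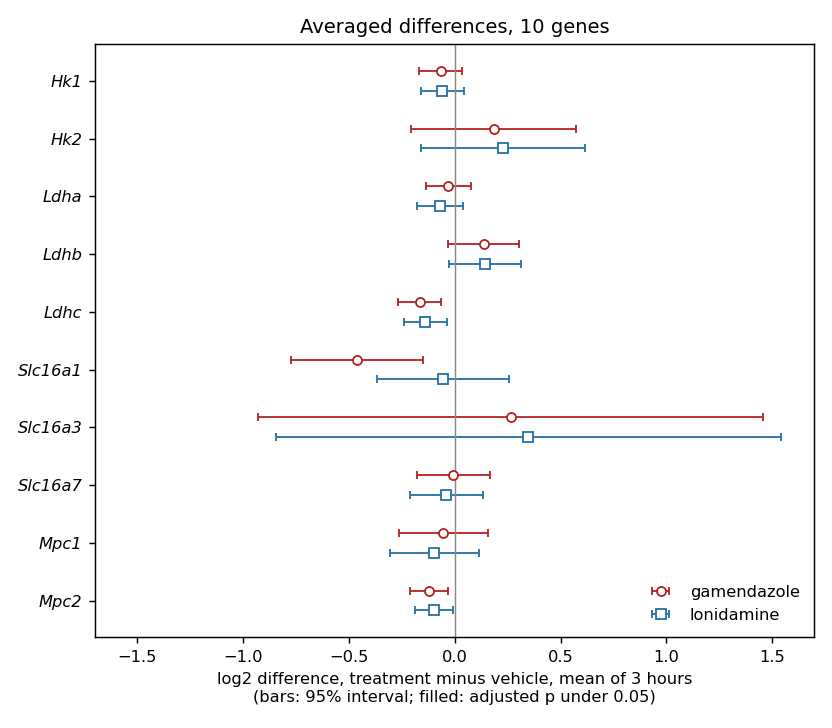
Averaged log2 difference from vehicle (horizontal axis) of the 10 genes (vertical axis) for gamendazole and lonidamine, with 95% intervals from limma as bars; a filled symbol would mark an adjusted p under 0.05. No symbol is filled, the gamendazole interval of Slc16a1 runs from -0.78 to -0.15, and the widest intervals are those of Slc16a3.

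Counted by single arrays, 2 of the 10 genes (Ldhc and Mpc2) had all 3 gamendazole arrays below all 4 vehicle arrays, where 8.97% of tested probe sets did, and 1 (Ldhb) had all 3 above, where 10.1% did. With lonidamine 3 genes (Hk1, Ldhc and Mpc1) had all 3 arrays below, against a background of 7.14%, and 0 had them above, against 7.19%. These counts were made on the deposited scaling only. Hk1, Ldhc and Mpc2 are among 392 probe sets of 10000 units or more. Their median differences were -0.12 and -0.11 as deposited, and -0.01 and -0.00 after quantile normalization. The share without overlap among such bright probe sets was not computed. At single hours, where 1 array stands against 1, Slc16a3 was the one member at least 2-fold from vehicle. With gamendazole it was 2.29 times vehicle at 4 h and 0.475 times at 24 h, and with lonidamine 0.452 times at 24 h. At 12 h it was 3.19 times vehicle with lonidamine, which was not counted because neither array reached the pooled median of 116.2. That vehicle array also lay under the floor. The shares of named probe sets past 2-fold were 3.06%, 6.05% and 6.16% with gamendazole at 4, 12 and 24 h, and 2.07%, 3.48% and 5.37% with lonidamine. Between 2 vehicle arrays 1.61% to 2.11% were past it, and Slc16a3 was among them in 2 of the 6 pairs.

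The small negative differences of the brightest members moved with the scaling of the arrays. Of the 17549 tested probe sets, 392 had a mean signal of 10000 or more, as Hk1, Ldha, Ldhc and Mpc2 do. As deposited, their median difference was -0.12 with gamendazole (quartiles -0.15 and -0.07) and -0.11 with lonidamine (quartiles -0.15 and -0.08). After quantile normalization these medians were -0.01 and -0.00, and after cyclic loess 0.00 and -0.00. Ldhc differed by -0.04 and -0.01 with gamendazole under these scalings, and by 0.02 and 0.01 with lonidamine, so the direction turned with lonidamine. Hk1 and Ldha turned positive under both scalings with both drugs, from 0.03 to 0.09. Slc16a7 turned positive likewise, from 0.03 to 0.08, and Mpc2 differed by -0.01 with gamendazole and 0.01 with lonidamine. Slc16a1 stayed at -0.50 and -0.46 with gamendazole, and Ldhb at 0.19 in both. Neither scaling gave a tested member an adjusted p under 0.05 with either drug; under cyclic loess Slc16a3 did not pass the filter.

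**Figure D3:**
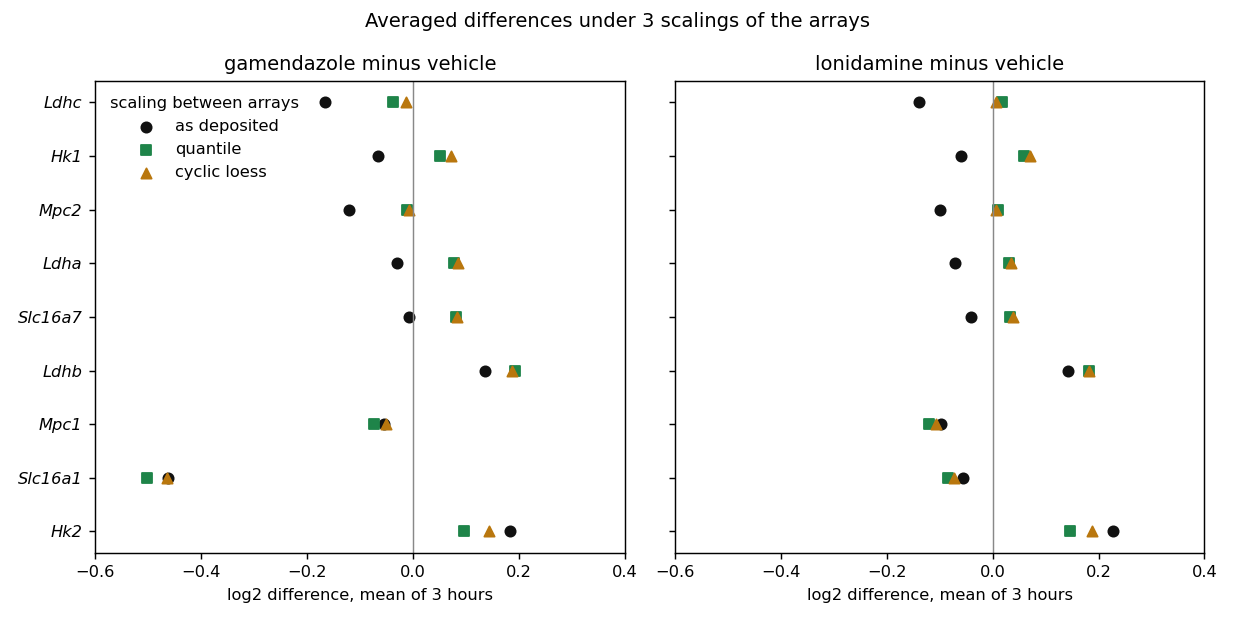
Averaged log2 difference from vehicle (horizontal axis) of 9 genes (vertical axis) with gamendazole (left) and lonidamine (right), as deposited, after quantile normalization and after cyclic loess. Points of Ldhc, Hk1, Mpc2 and Ldha shift toward or past 0, while those of Slc16a1 with gamendazole stay between -0.50 and -0.46; Slc16a3 is left out because its signals lie near the floor.

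Around these steps stand 36 other genes of hexokinases, carriers and their partners, lactate dehydrogenases, pyruvate oxidation, and the hypoxia-inducible factors (HIF), which drive many genes of glycolysis. Of these, 29 had a named probe set and 24 were tested. With gamendazole 3 rose and 0 fell, and with lonidamine 1 rose and 0 fell. Over all 17549 tested probe sets 610 rose and 83 fell with gamendazole, and 135 rose and 2 fell with lonidamine. The median differences of the neighbour genes were -0.08 and -0.02, beside -0.03 and -0.01 over all tested. The genes that rose were Pdp1, of 12 tested genes of pyruvate entry and oxidation, and Hif1a and Epas1, of 6 tested genes of hexokinase docking and HIF. Hk3 and Pkm were not listed under these symbols and are not analysed here.

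The HIF subunit gene Hif1a gave 2158, 3726 and 2886 with gamendazole and 1587, 2115 and 3501 with lonidamine, against 1497, 1523, 1449.5 and 1532 with vehicle. All 6 treated arrays were above all 4 vehicle arrays. It rose 1.90-fold with gamendazole (0.93 ± 0.20, limma adjusted p = 0.0380) and differed by 0.60 ± 0.20 with lonidamine (adjusted p = 0.258). Epas1, which encodes HIF-2 alpha, gave 1736, 2535 and 2568 with gamendazole and 1698, 2227 and 3745 with lonidamine, against 1448, 1279, 1338 and 1548 with vehicle. It rose 1.62-fold with gamendazole (0.70 ± 0.15, adjusted p = 0.0359) and 1.75-fold with lonidamine (0.81 ± 0.15, adjusted p = 0.0481). Both calls with gamendazole and that of Epas1 with lonidamine ended when the run replaced the hour as a factor (limma adjusted p = 0.134, 0.147 and 0.0943). They also ended without the 12 h or the 24 h arrays, without the filter, and without the variance trend. That of Epas1 with lonidamine ended in both rescaled fits too (adjusted p = 0.0664 after quantile normalization and 0.0643 after cyclic loess). A higher floor, a stricter filter, no hour term or the mean of probe sets ended it as well. With a higher floor, no hour term or the mean of probe sets, the Hif1a and Epas1 calls with gamendazole did not both hold.

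Hk2, Ldha, Slc16a3 and Pdk1 are among the known targets of HIF in other cells, and none of these 4 passed with either drug. Over all tested probe sets 3.95% passed with gamendazole and 0.781% with lonidamine, so no call among 4 genes lies near that background. Slc16a3 was dim, and its gamendazole interval ran from -0.93 to 1.46. Pdk1, a kinase that switches pyruvate dehydrogenase off, gave 399, 230.0 and 290.5 with gamendazole and 298, 294 and 356 with lonidamine, against 413, 344, 459 and 412 with vehicle. Its differences were -0.43 ± 0.22 (limma adjusted p = 0.304; 95% interval -0.91 to 0.05) and -0.35 ± 0.22 (adjusted p = 0.557; -0.84 to 0.13). As deposited, the intervals of Hk2 reach up to 0.62 and those of Ldha up to 0.08. The Ldha difference with gamendazole was 0.08 ± 0.04 after quantile normalization and 0.09 ± 0.04 after cyclic loess, so that limit does not hold there. Egln3, another HIF target, did not pass the filter on low signals and was not tested: it gave 27.1, 79.1 and 73.9 with gamendazole and 21.6, 34.6 and 55.1 with lonidamine, against 30.5, 27.1, 60.1 and 34.1 with vehicle.

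Of the enzymes that set pyruvate dehydrogenase activity, Pdp1, the phosphatase that switches it on, rose 1.41-fold with gamendazole. It gave 1642, 1880.5 and 1882 with gamendazole and 1581, 1865 and 1714 with lonidamine, against 1220.5, 1308, 1229 and 1283 with vehicle, with no overlap between treated and vehicle arrays. The difference was 0.50 ± 0.09 with gamendazole (limma adjusted p = 0.0178) and 0.43 ± 0.09 with lonidamine (adjusted p = 0.0666), and with the run as factor the first was 0.48 (adjusted p = 0.0647). Without the 12 h or 24 h arrays the gamendazole call ended (adjusted p = 0.335 and 0.152), as it did without the filter or the variance trend. Without the 4 h arrays the lonidamine difference was 0.51 and passed (adjusted p = 0.0284). The kinases Pdk2, Pdk3 and Pdk4 differed by -0.19, -0.31 and -0.54 with gamendazole and by -0.11, -0.15 and 0.07 with lonidamine, and none passed (limma adjusted p from 0.0973 to 0.966). The Pdk4 value with gamendazole rests on the 12 h array: the signals were 149.6, 9.2 and 97.1 with gamendazole, the second under the floor, against 148.7, 124.4 and 90.2 with vehicle at 4, 12 and 24 h.

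Pdha1, the somatic catalytic subunit of pyruvate dehydrogenase, gave 364, 555 and 466 with gamendazole and 258, 355 and 449 with lonidamine, against 228, 328, 270.5 and 259 with vehicle. Its difference of 0.68 ± 0.22 with gamendazole did not pass (limma adjusted p = 0.123). Pdha2, the germ cell form, differed by -0.14 ± 0.07 with gamendazole and -0.12 ± 0.07 with lonidamine. Bsg encodes basigin, which brings MCT1 and MCT4 to the membrane. It gave 7529, 6871 and 6491 with gamendazole and 6909.5, 7517 and 7306 with lonidamine, against 8078, 7929, 8259 and 8163 with vehicle, and the differences of -0.22 ± 0.06 and -0.16 ± 0.06 did not pass (limma adjusted p = 0.0916 and 0.324). Emb encodes embigin, the usual partner of MCT2. It gave 1235, 1713 and 1116 with gamendazole and 1098, 1869 and 1820.4 with lonidamine, against 1045, 1129, 1193 and 1089 with vehicle, and the differences of 0.23 ± 0.16 and 0.45 ± 0.16 did not pass (limma adjusted p = 0.480 and 0.285).

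**Figure D4:**
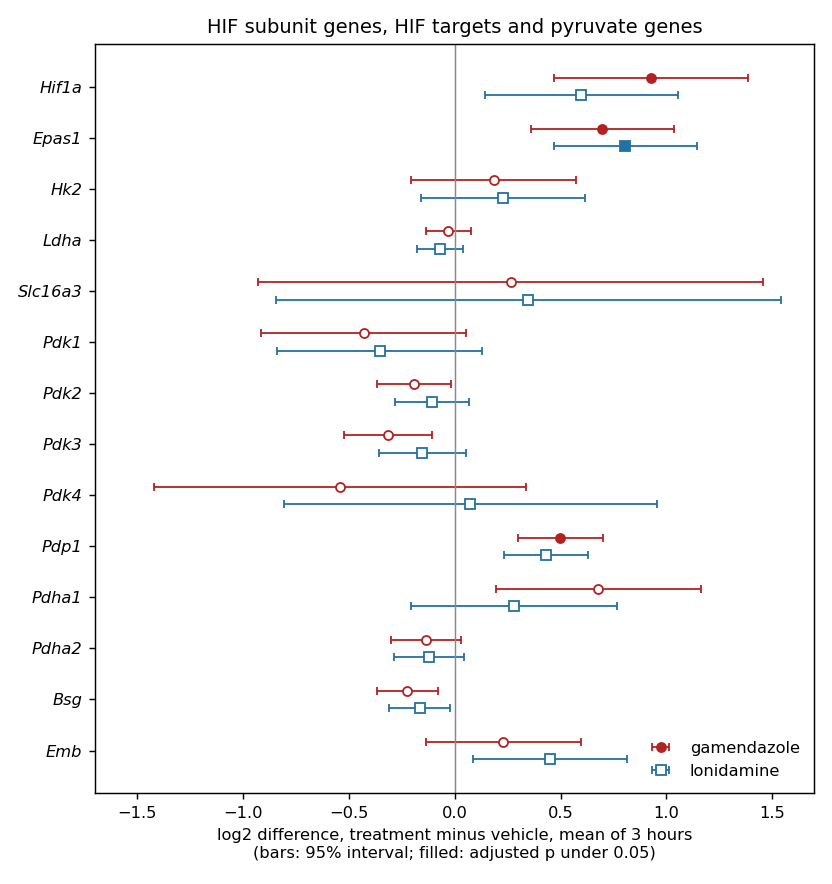
Averaged log2 difference from vehicle (horizontal axis) of HIF subunit genes, known HIF targets, and genes of pyruvate dehydrogenase and carrier partners (vertical axis), for gamendazole and lonidamine, with 95% intervals from limma; filled symbols mark an adjusted p under 0.05. Hif1a with gamendazole, Epas1 with both drugs and Pdp1 with gamendazole are filled, while Hk2, Ldha, Slc16a3 and Pdk1 are open.

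The genes whose profile over the 10 arrays was most like that of a member were found by Pearson's r of log2 signals, as a description with arrays in common. For Slc16a1 they were Atosb, Tmem205 and Slco1a5 (r = 0.96 each). Slco1a5, an organic anion carrier, gave 215, 53.6 and 47.8 with gamendazole and 211, 179 and 111 with lonidamine, against 196, 166, 183 and 151 with vehicle; a like profile is what selected it. For Ldhc they were the mitochondrial ATP synthase gene Atp5f1a, Supt20h and Trim28 (r = 0.97 each). For Ldha they were Lrrc51, Ube2j1 and Ankrd60 (r from 0.92 to 0.96), for Slc16a7 Zbtb49, Asb6 and Pip4p1 (r from 0.90 to 0.93), and for Hk2 C18h18orf32, Cpeb1 and Enc1 (r from 0.85 to 0.92). Slc16a3 was left out because it had a value at the floor.

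Markers of the testis cell types were measured beside these genes. Over all tested probe sets 3.95% passed with gamendazole and 0.781% with lonidamine. At those shares, lists as short as these would hold few or no calls. Of 11 tested spermatid genes 0 passed with either drug, with medians of -0.11 and -0.12, and their summed signal was 282000 to 318200 with gamendazole and 287700 to 311400 with lonidamine, against 322400 to 337500 with vehicle. Most spermatid markers exceed 10000 units, and their medians lie beside the scaling-dependent medians of -0.12 and -0.11 of all 392 such bright probe sets. Of 6 tested spermatocyte genes 0 passed, with medians of -0.12 and -0.05 and sums of 33010 to 34860 with gamendazole and 32400 to 37090 with lonidamine, against 34460 to 37120 with vehicle. Of 8 tested Sertoli cell genes 1 fell with gamendazole (Inhbb, a subunit gene of the hormone inhibin B, by 1.30 on the log2 scale) and 0 with lonidamine. Their medians were 0.11 and 0.20, and the sums were 26740 to 28300 and 27030 to 29640, against 24790 to 26480 with vehicle. Clu and Cldn11 made up most of these sums. Unlike Inhbb, Inha, Gata4, Cldn11, Wt1, Dhh and Clu differed by 0.43, 0.31, 0.19, 0.14, 0.08 and 0.04 with gamendazole. Shbg differed by -0.21. Of 6 tested Leydig cell genes 0 passed, with medians of -0.91 and -0.81 and sums of 5046 to 15150 with gamendazole and 6130 to 8539 with lonidamine, against 8178 to 10560 with vehicle. The list was not uniform: with gamendazole Star differed by 0.99, and the others by -2.13 (Cyp17a1) to -0.11 (Hsd3b1). Values also moved with the hour. Cyp11a1 gave 2788, 871 and 94.1 with gamendazole at 4, 12 and 24 h, against 1637, 1598 and 1861 with vehicle. Of 11 tested macrophage and leukocyte genes 1 rose with gamendazole (the complement gene C1qa, by 0.87 on the log2 scale) and 0 with lonidamine, with medians of 0.56 and 0.44 and sums of 5706 to 8961 and 4957 to 9219, against 5074 to 5526 with vehicle. In the smaller lists Dmrt1 (of 4 tested spermatogonia genes) fell with gamendazole. S100a9 (of 3 neutrophil genes), Hbb (of 3 erythrocyte genes) and Tagln (of 5 smooth muscle genes) rose, and none passed with lonidamine. The medians of these lists were -0.52, 1.15, -0.22 and 0.08 with gamendazole and -0.24, 1.15, 0.05 and 0.295 with lonidamine. Tagln differed by 1.24 with gamendazole and by 1.17 with lonidamine, where it lay close to the threshold (limma adjusted p = 0.0505). Against Hbb, the erythrocyte genes Alas2 and Slc4a1 differed by -0.22 and -0.32 with gamendazole. Beside Tagln, Des differed by 1.05 with gamendazole, and Acta2, Myh11 and Cnn1 by 0.08, 0.055 and -0.05. Of 3 tested endothelium genes 0 passed with either drug, with medians of -0.59 and 0.08. No marker of these lists lay under the floor on all 10 arrays. The part that these shifts have in the values of the 10 genes was not tested.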

How the data were processed

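The authors deposited linear intensity values per probe set from GCOS 1.1, per the submitters' processing notes. By the values, every array had been scaled to a mean of 500.2, taken without the top and bottom 2% of values, and array medians lay between 110.2 and 124.5. RNA was labelled by the single-cycle biotin procedure, per the labels' protocols. Hybridisation runs (3) were inferred here from the instrument records and may differ from the laboratory's batches; gamendazole 4 h shared the run of the 12 h arrays. The other deposited record fields were not used.

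Of 31099 probe sets, 57 controls were left out. A floor of 37.1, the 25th percentile over all arrays, was applied before log2, so lower signals are not told apart. Tests covered the 17549 probe sets that reached 116.2, the median over all arrays, on at least 2 of them, with limma 3.58.1 in R 4.3.3, a variance trend, 4 residual degrees of freedom and Benjamini-Hochberg adjustment; the threshold was 0.05. Single hours were described by ratios, and a 2-fold difference counted only if 1 of the 2 arrays reached that median. The fit was tested on simulated data. Symbols came from the platform annotation: 20826 probe sets had 1, 436 several and 9780 none. The rule for named genes took all 10 members, each neighbour gene that passed, a short list of partners and regulators, and the 3 genes most like a member. Members, lists and rules were chosen with earlier results of these data known. The number of arrays limits the precision.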

Additional observations from a re-analysis of the deposited data

Results flagged for a closer look

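Slc16a3 with gamendazole stood in opposite directions at 2 hours, each by more than 2-fold: its log2 difference, gamendazole minus vehicle, was 1.19 at 4 h and -1.07 at 24 h. Each value compares 1 array with 1 array, and the difference between the hours was not tested. The vehicle array of 24 h had 119.6 units and was the highest of the 4 vehicle arrays, of which the others had 32.2 to 61.0.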

How the results depend on the processing

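The labels give no replicate numbers to pair samples by; arrays were matched by hour through the hour factor, and without it 0 member genes passed with either drug, as with it. The number of member genes that passed with gamendazole was 0 as reported and 2 without the gamendazole 4 h array. With the arrays of 1 hour left out in turn it was 0 to 2, with the 2 (Ldhc and Slc16a1) without 4 h. With lonidamine it was 0 under every alternative. Over all 17549 tested probe sets 693 passed with gamendazole as reported, 1162 without its 4 h array, and 1646 without all 4 h arrays. Without the 12 h and the 24 h arrays 0 and 186 passed. Over all alternatives, 242 of 274 member differences kept their direction and their side of the threshold, 4 passed that had not, and 28 turned direction, all of them of genes that did not pass. The cause was not tested.

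Under quantile normalization and cyclic loess the differences that turned were, with gamendazole, Hk1 (0.051 and 0.072), Ldha (0.0782 and 0.0861) and Slc16a7 (0.0826 and 0.0843), and with lonidamine Hk1 (0.0601 and 0.0707), Ldha (0.0318 and 0.0348), Ldhc (0.0175 and 0.0066), Slc16a7 (0.0331 and 0.0389) and Mpc2 (0.0108 and 0.0064). With the mean of a gene's probe sets Hk1 was 0.0815 with gamendazole and 0.0329 with lonidamine. With the 0 h vehicle array added Slc16a7 was 0.0218 with gamendazole. Slc16a3 was -0.1074 with gamendazole without its 4 h array, and -0.0139 with lonidamine with the floor at the pooled median. With 1 hour left out in turn, gamendazole gave -0.0744 to 0.0068 for Ldha, -0.2 to 0.9333 for Slc16a3, -0.115 to 0.1217 for Slc16a7 and -0.1103 to 0.0353 for Mpc1, and lonidamine gave -0.1267 to 0.0085 for Slc16a1, -0.2128 to 1.0946 for Slc16a3 and -0.0867 to 0.0097 for Slc16a7.

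Of the neighbour genes, 3 passed with gamendazole as reported, and 1 with the higher floor, without the hour term or with the mean of probe sets. Without the filter, without the variance trend or with the run replacing the hour, 0 passed. Without the gamendazole 4 h array 9 of 24 tested passed, and with 1 hour left out 0 to 9. Over all 17549 tested probe sets 1162 passed without the gamendazole 4 h array (671 higher, 491 lower), and 0 to 1646 with 1 hour left out. With lonidamine 1 neighbour gene passed as reported. With the higher floor, no filter, the stricter filter, either scaling, no variance trend, no hour term, the run or the mean of probe sets, 0 passed. Without the gamendazole 4 h array 2 passed, and with 1 hour left out 0 to 4. Over all tested probe sets these counts with lonidamine were 225 and 0 to 600. The single-hour count of members past 2-fold, which is Slc16a3 alone, was 0 with the higher floor at gamendazole 4 h and 24 h and lonidamine 24 h, and 0 under cyclic loess or against the mean of the 4 vehicle arrays at 24 h with both drugs. Low signal limits Slc16a3, Pdk4 and the second Slc16a1 probe set.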
